A study of Mus musculus with 24 samples.

Results

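The genes described here carry out fatty acid uptake, activation and beta-oxidation, and they were followed in cardiomyocyte (CM) nuclei of the mouse heart through the first 2 postnatal weeks. The list holds 38 genes out of 56923 gene identifiers counted in each library. They were chosen by symbol for their place in the pathway, with earlier results of these data known. RNA was taken from ventricular nuclei sorted for PCM1, a centriolar satellite protein that sits on the CM nuclear envelope, and was sequenced from the 3′ end. Nuclei came from XMLC2(-)Casp2(fl/fl) mice, called control, and from XMLC2(+)Casp2(fl/fl) mice, called Casp2-depleted, at postnatal day 1 (P1), day 7 (P7) and day 14 (P14). Both genotypes carry loxP-flanked alleles of Casp2, the gene of the protease Caspase-2, on a C57BL/6N background, and only the XMLC2(+) mice carry a Cre recombinase that is active in CMs, so the control mice lack Cre as well as the deletion. Each library is a pool of 15 hearts at P1, 6 hearts at P7 and 2 hearts at P14, without regard to sex.

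The fetal heart burns mostly glucose and lactate, and after birth the CM turns to fatty acids as its main fuel. Lipoprotein lipase frees fatty acids from circulating triglyceride, CD36 and fatty acid transport proteins carry them across the membrane, and acyl-CoA synthetases trap them as acyl-CoA. The carnitine shuttle brings acyl-CoA into the mitochondrion, malonyl-CoA restrains that step, and the beta-oxidation spiral then shortens the chain by acetyl-CoA units while passing electrons to the electron-transferring flavoprotein.

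Of the 24 libraries, 4 in each of the 6 groups, 3 were left out by the study for their quality (replicate 1 of P1 control, replicate 3 of P14 control and replicate 1 of P14 Casp2-depleted), and all values below are from the other 21 unless said otherwise. These held 891817 to 2924097 reads on genes, with 7628 to 17770 genes detected. The P14 libraries differed from the P7 libraries in ways that touch every result on P14. They held 891817 to 1278961 reads on genes and 7628 to 13651 genes detected, against 1452114 to 2924097 reads and 14006 to 17770 genes at P7. Reads on no annotated gene made up 63.7 to 76.1% of uniquely placed reads at P14 against 34.3 to 64.3% at P7. The summed level of 10 CM markers was 12676 to 47014 counts per 1000000 reads on genes (CPM) at P14 and 47808 to 89603 CPM at P7, and each of the 10 markers had reads. Markers of other cells were far lower in all 21 libraries, at 51.6 to 1115 CPM for 9 endothelial genes, 24.6 to 349 CPM for 7 fibroblast genes, 49.3 to 453 CPM for 5 mural cell genes, 48.3 to 344 CPM for 7 macrophage genes, 0 to 117 CPM for 5 adipocyte genes and 0 to 109.6 CPM for 6 erythroid genes. Of these, Egfl7, Cd68 and Retn had no reads. The median sums at P7 and P14 were 259 and 571 CPM for endothelial, 99.1 and 223 CPM for fibroblast, 66.2 and 193 CPM for macrophage and 7.63 and 20.2 CPM for adipocyte genes, with P7 and P14 overlapping for each. They were 293 and 187 CPM for mural cell and 27.1 and 1.89 CPM for erythroid genes. Of the genes of these 6 lists, only 3, 1 mural and 2 erythroid, were called from P7 to P14 in the mean of both genotypes, all lower, and the part of other cells in the results on P14 was not tested. Casp2 itself had 0 reads at P1 and P14 in both genotypes and 0 to 2.19 CPM at P7, so its level gives no check of the genotype labels. In a bulk measurement of this kind, fewer CM nuclei in the pool and less of a transcript per nucleus cannot be told apart.

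Of the 38 members, 36 had reads and passed the filter on low counts, and they were tested together with all 20368 genes that passed. Cpt1b, the muscle form of carnitine palmitoyltransferase 1, and Etfb, a subunit of the electron-transferring flavoprotein, had 0 reads in all 24 libraries. Cpt1b (chromosome 15, 89300606 to 89310239, minus strand, GRCm39) lies almost wholly under the annotated gene Gm44502 on the same strand, with 9632 bases in common. Etfb (chromosome 7, 43093493 to 43107224, plus strand) shares 13673 bases with Etfbl. Among protein-coding genes that lie wholly inside another coding gene on the same strand, 16 of 330 (4.85%) had any read, compared with 333 of 495 (67.3%) where the other gene is on the opposite strand and 77.0% of coding genes that overlap no other. The zeros of Cpt1b and Etfb are therefore not read as an absence of their RNA in CMs. Fabp3, Acaca, Acsl5, Acsl6, Mlycd, Cpt2 and Eci2 overlap genes on the opposite strand by 3076 to 49362 bases. Eci2 shares the most, 49362 bases or its whole span, with Gm16984, and it held 2869 reads. An overlap on the opposite strand thus did not empty Eci2, or most such genes above, of reads. The strand setting of the counting itself is not given in the sources used here.

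The summed level of the members was 1215 to 2448 CPM in P1 control libraries and 1564 to 4353 CPM in P1 Casp2-depleted libraries. It was 2710 to 4937 CPM in P7 control and 1848 to 4262 CPM in P7 Casp2-depleted libraries, and 1288 to 2678 CPM in P14 control and 1381 to 1665 CPM in P14 Casp2-depleted libraries. All 3 P14 control libraries were below all 4 P7 control libraries, and the same held for the Casp2-depleted libraries, while P1 control libraries were below all P7 control libraries and overlapped with P14, and P1 Casp2-depleted libraries overlapped with both other days. Set against the summed level of the 10 CM markers in the same library, a ratio chosen after the data were seen, the members came to 4.37 to 8.44% at P1, 3.02 to 8.24% at P7 and 5.70 to 10.2% at P14, with medians of 5.14, 3.59 and 8.43%. The members' sum was thus lower at P14 in CPM within each genotype, while its median ratio to CM marker reads was higher at P14 than at P7, with overlap between the days. Reads were found for 30 to 35 of the members in each P7 library and for 15 to 29 in each P14 library.

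**Figure D1:**
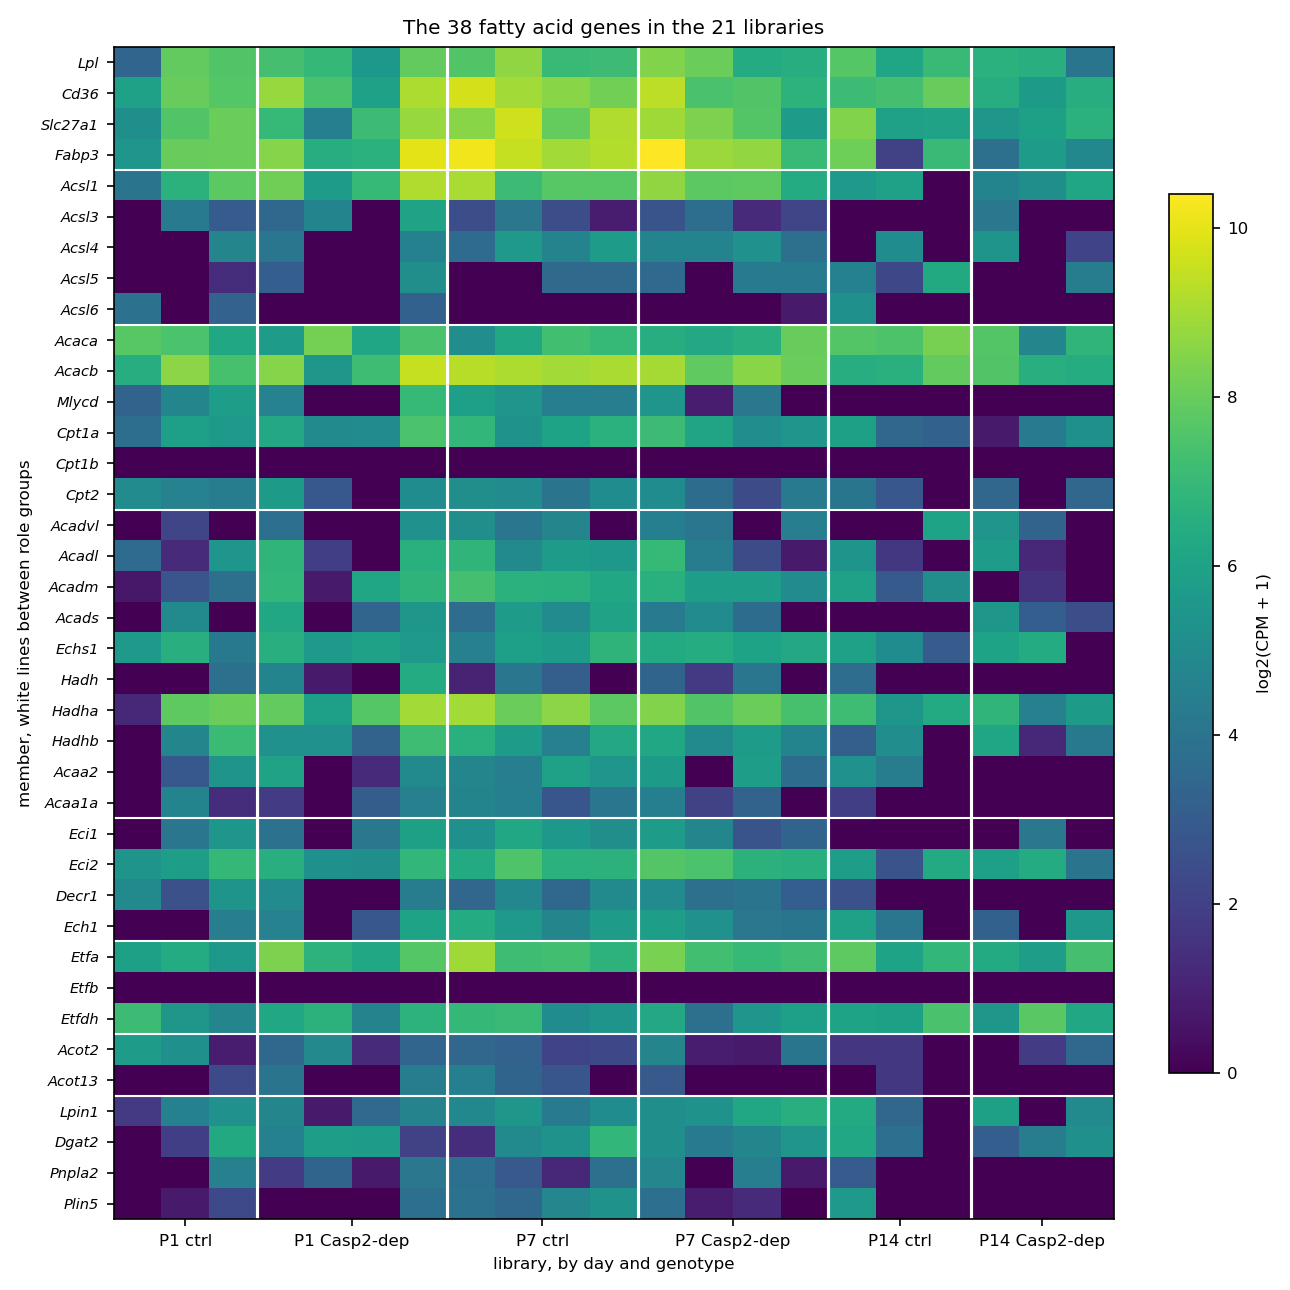
Levels of the 38 members (rows, ordered by role, with white lines between role groups) in the 21 libraries (columns, grouped by day and genotype), as log2(CPM + 1) with CPM scaled by TMM factors. The darkest cells are values of 0, which are most frequent in the P14 columns and fill the rows of Cpt1b and Etfb.

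**Figure D2:**
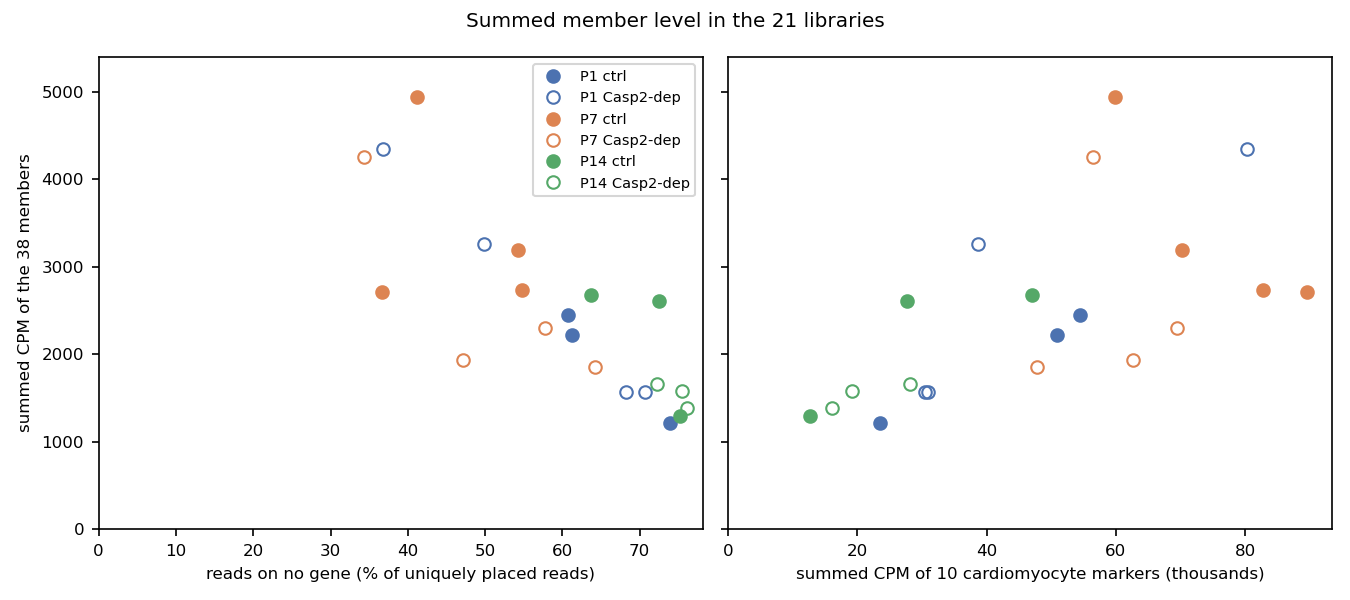
Summed CPM of the 38 members in each of the 21 libraries (vertical axis) against the percent of reads on no gene (left) and the summed CPM of 10 CM markers (right). Filled circles are control and open circles Casp2-depleted libraries, and the P14 libraries lie at 63.7 to 76.1% on the left and at 12676 to 47014 CPM on the right.

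The first comparison asks how the pathway changed between P7 and P14, with the change averaged over both genotypes. In edgeR's quasi-likelihood test, 11 of the 36 members (30.6%) were called lower at P14 and 0 were called higher, where a call needs a p of less than 0.05 after Benjamini-Hochberg adjustment and a change of more than 1 log2 unit either way. Over all 20368 genes, 8.66% were called lower and 0.26% higher, as 1764 and 53 genes, and the split was 1605 lower and 419 higher in limma-voom with quantile normalization and 2047 and 328 in DESeq2. The 11 are Cd36, Slc27a1, Fabp3, Acsl1, Acacb, Mlycd, Acadm, Hadha, Acaa2, Eci1 and Decr1, and they span uptake, activation, malonyl-CoA control and the oxidation spiral. A further 6 members had an unadjusted p below 0.05 only, which makes 17 of the 36 below 0.05, against 28.1% of all genes. Fitted values were below 0 for 31 of the 36 and above 0 for 5, where 33.5% of all genes were above 0. The median log2 fold change was -1.70 over the members and -0.87 over all genes. The spread of the members' median level between libraries of 1 group was 1.35 on the log2 scale (SD), and the difference between these medians was not tested. The whole table was thus shifted downwards, and this shift depends on the scaling: it was -0.60 with RLE size factors and -0.094 with quantile normalization. The 10 CM markers had a median of -2.22, with 8 of them called lower. The members tested also held more reads than genes at large, with a median of 968 against 447 over the 21 libraries. The p-values measure the spread between these pooled libraries.

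**Figure D3:**
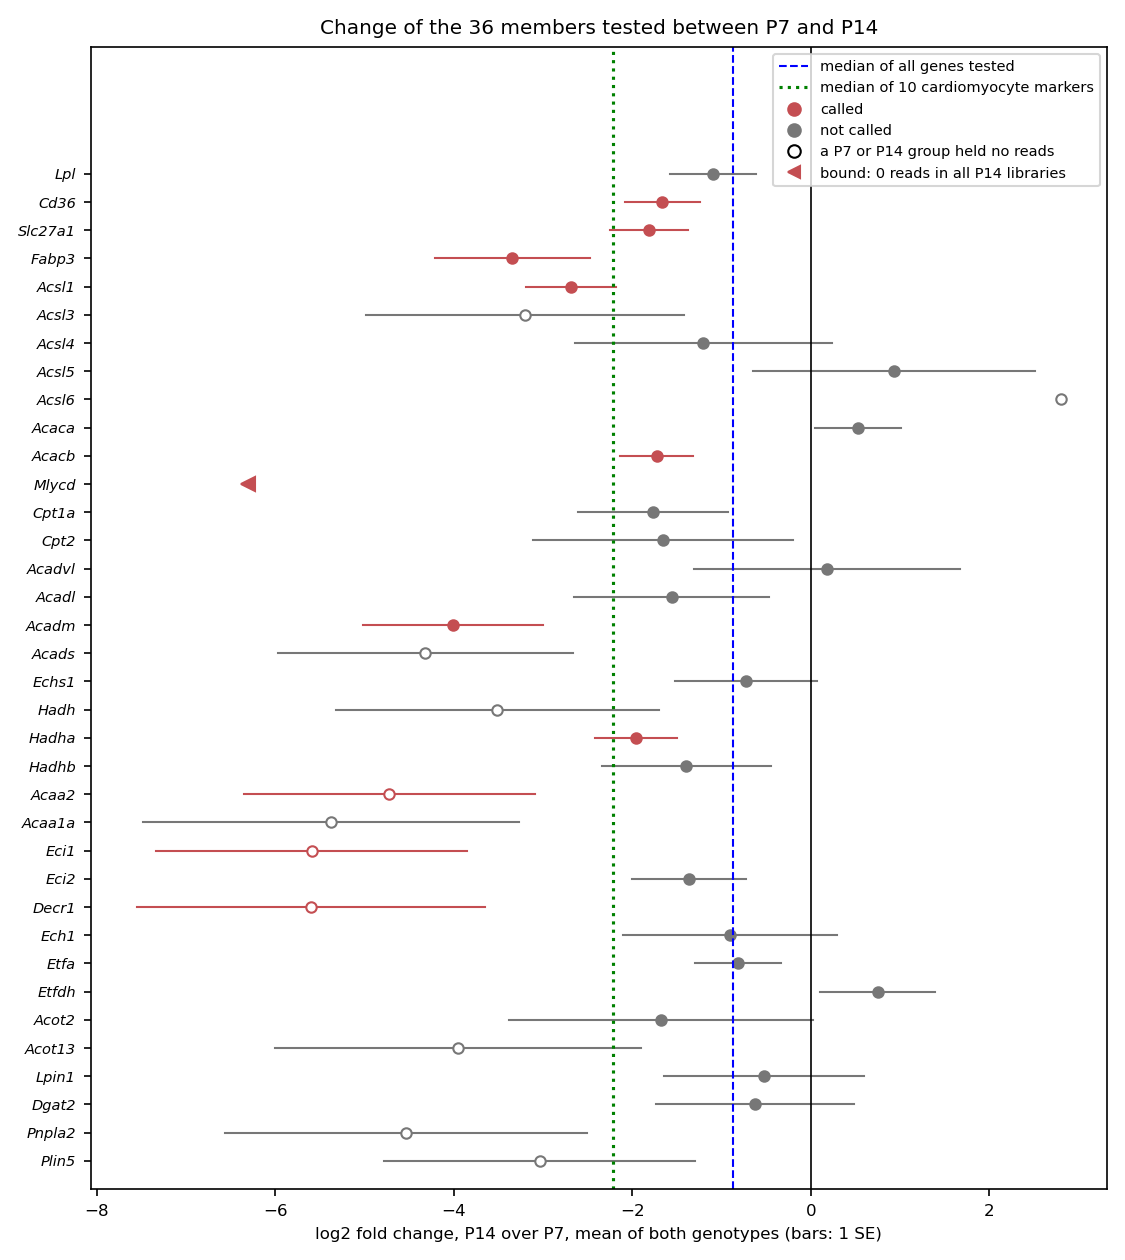
Fitted log2 fold change from P7 to P14, averaged over both genotypes, for each of the 36 members tested (points, with bars of 1 SE), in order of role. The 11 called members (red) lie to the left of the median of all genes (dashed line, -0.87), the dotted line is the median of 10 CM markers (-2.22), open points are members with a P7 or P14 group without reads, and Mlycd is drawn at the bound its 0 reads allow.

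Of these 11, Slc27a1, Acsl1, Acacb, Mlycd, Acadm and Hadha were called in each of the 21 fits that left out a single library. In limma-voom with quantile normalization the calls of Cd36, Slc27a1, Acsl1, Acacb, Hadha and Acaa2 were lost, and Slc27a1 was also not called in limma-voom with TMM or in DESeq2. With all 24 libraries, those of Cd36, Acacb, Hadha and Decr1 were lost. Cd36 lost its call without P7 Casp2-depleted replicate 1, and Fabp3 without P14 control replicate 4 or any of the 3 P14 Casp2-depleted libraries. Eci1 kept it in 15 of the 21 fits, Decr1 in 5 and Acaa2 in 4. The count was 7 without P7 Casp2-depleted replicate 1, P14 control replicate 4, or P14 Casp2-depleted replicate 2 or 4, and 7 to 11 over all 21 fits. With the replicate number as a block, 10 of the 11 were called and Acaa2 was not. When the percentage of reads off genes entered the model as a covariate, 0 members were called in edgeR's test and 2 had an unadjusted p below 0.05, against 225 genes called among all 20368. The fitted log2 fold changes of Cd36 and Slc27a1 were then 0.37 and 0.13. The share was 63.7% or more in every P14 library and in 1 of the 8 P7 libraries, so the parts of day and share can hardly be told apart.

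The upstream sequences of 4 members are shown because these were called in the most comparisons, with ties taken by the smallest p, which leaves out Acacb and Cd36 with as many calls as Mlycd and Hadha. They are the 250 bases before the RefSeq start of Acadm, of Hadha, of Mlycd and of both starts of Acsl1 (GRCm38.p6, 5′ to 3′ on the gene's strand), in lower case with motif matches in capitals.
Acadm, chr3:153944644-153944893, minus strand: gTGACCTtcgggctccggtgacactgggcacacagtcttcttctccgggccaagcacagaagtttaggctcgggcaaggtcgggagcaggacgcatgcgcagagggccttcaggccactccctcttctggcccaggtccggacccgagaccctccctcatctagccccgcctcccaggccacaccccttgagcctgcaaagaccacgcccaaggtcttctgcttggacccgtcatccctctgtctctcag
Hadha, chr5:30154981-30155230, minus strand: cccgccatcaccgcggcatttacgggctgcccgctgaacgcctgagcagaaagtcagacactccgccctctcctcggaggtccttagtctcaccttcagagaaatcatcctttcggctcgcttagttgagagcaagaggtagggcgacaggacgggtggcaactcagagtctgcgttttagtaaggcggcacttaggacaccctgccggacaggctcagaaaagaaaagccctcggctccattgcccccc
Acsl1, upstream start, chr8:46470787-46471036, plus strand: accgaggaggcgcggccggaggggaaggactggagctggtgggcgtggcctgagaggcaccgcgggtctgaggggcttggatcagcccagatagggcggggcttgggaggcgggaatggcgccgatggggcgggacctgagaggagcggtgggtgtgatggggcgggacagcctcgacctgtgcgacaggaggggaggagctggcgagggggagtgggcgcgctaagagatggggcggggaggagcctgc
Acsl1, downstream start, chr8:46490716-46490965, plus strand: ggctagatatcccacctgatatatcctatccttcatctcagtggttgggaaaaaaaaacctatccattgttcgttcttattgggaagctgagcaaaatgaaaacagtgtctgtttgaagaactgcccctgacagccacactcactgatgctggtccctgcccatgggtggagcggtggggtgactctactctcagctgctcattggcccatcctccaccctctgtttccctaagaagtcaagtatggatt
Mlycd, chr8:119394644-119394893, plus strand: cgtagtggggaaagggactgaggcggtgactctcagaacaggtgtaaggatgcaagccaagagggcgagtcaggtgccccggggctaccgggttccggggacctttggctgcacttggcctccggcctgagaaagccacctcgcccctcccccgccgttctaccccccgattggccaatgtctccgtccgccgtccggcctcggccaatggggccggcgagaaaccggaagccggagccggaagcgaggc

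Motifs were searched on both strands in windows of 300 bases, 250 before and 50 after the start. Nuclear receptors such as the PPARs and the estrogen-related receptors bind sites built from AGGTCA. This hexamer was found in 26.3% of the 38 windows of the 32 members with an entry and in 16.3% of all 32851 windows. It occurred in Acacb, Acadm, Acadvl, Acsl6, Cd36, Cpt1a, Echs1, Lpin1 and Plin5. The capitals in the Acadm sequence mark this hexamer read on the opposite strand, at position -249 from the start, and the other sequences shown hold no match. The full DR1 element, a direct repeat of the hexamer with 1 base between, was in 0.0396% of all windows and in 0 of the members', and DR1 with at most 2 mismatches was in 3.86% of all and in Cd36, Echs1 and Etfa. TCAAGGTCA, an extended form that contains the hexamer, was in 0.423% of all windows and in Acsl6, and TATAAA was in 13.6% of all windows and in Acacb.

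Uptake genes had the following levels, in CPM scaled by TMM factors, a scaling used for all levels of single genes below. The factors were 0.5745 to 0.9827 at P7 and 1.109 to 1.57 at P14. Whether libraries of these days overlap for a gene thus depends on the scaling. Cd36, the main fatty acid translocase of the CM membrane (chromosome 5, 17986432 to 18094067), stood at 292, 379.6, 500.5 and 841 CPM in P7 control libraries and at 105, 169, 188 and 658 CPM in P7 Casp2-depleted libraries. At P14 it stood at 139, 162 and 252 CPM in control and at 49.8, 88.5 and 89.5 CPM in Casp2-depleted libraries. Within each genotype the P14 libraries were all below the P7 libraries. At P1 Cd36 was at 60.2, 201 and 254 CPM in control and at 60.9, 172, 446 and 556 CPM in Casp2-depleted libraries, which overlaps with P14. Cd36 fell from P7 to P14 by 1.67 ± 0.42 (SE) on the log2 scale (edgeR adjusted p = 0.00221).

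Slc27a1, a fatty acid transport protein with acyl-CoA synthetase activity, was at 245, 377, 576 and 799 CPM in P7 control and at 52.7, 199, 322 and 479.7 CPM in P7 Casp2-depleted libraries. It was at 61.5, 62.2 and 346 CPM in P14 control and at 44.4, 58.6 and 99.6 CPM in P14 Casp2-depleted libraries, so 1 P14 control library and 2 P14 Casp2-depleted libraries reached the P7 range of their genotype. At P1 the values were 35.5, 191 and 268 CPM in control and 21.8, 126, 142 and 446 CPM in Casp2-depleted libraries. Its log2 fold change from P7 to P14 was -1.82 ± 0.44 (SE, edgeR adjusted p = 0.00121).

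Fabp3, the heart fatty acid binding protein that carries fatty acids through the cytosol, was at 494, 597, 727 and 1164 CPM in P7 control and at 132, 416, 459 and 1357 CPM in P7 Casp2-depleted libraries. At P14 it was at 3.00, 133 and 275 CPM in control and at 13.4, 28.2 and 51.7 CPM in Casp2-depleted libraries, and within each genotype the days did not overlap. At P1 it was at 43.4, 256 and 271 CPM in control and at 89.1, 98.2, 363 and 1003 CPM in Casp2-depleted libraries. The log2 fold change from P7 to P14 was -3.34 ± 0.86 (SE, edgeR adjusted p = 0.0222). Lpl, the lipase that feeds this pathway, had a mean of 206 CPM at P7 and 101 CPM at P14 and was not called (log2 fold change -1.10 ± 0.49, edgeR adjusted p = 0.116).

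Acsl1, the main long-chain acyl-CoA synthetase of the heart (chromosome 8, 46924063 to 46990145, plus strand), had the smallest p of all members. It was at 138, 206, 208 and 541 CPM in P7 control and at 83.7, 218, 227 and 413 CPM in P7 Casp2-depleted libraries, and at 0, 48.1 and 60.8 CPM in P14 control and 24.7, 35.3 and 67.5 CPM in P14 Casp2-depleted libraries. In this scaling the highest P14 library of both genotypes was below the lowest P7 library, which held for 3 of the 36 members and for 3.81% of all genes, while the opposite held for 0 members and 0.0589% of all genes. By reads on genes alone, the days overlapped for Acsl1. P14 Casp2-depleted replicate 4 held 103 of 976714 such reads, and P7 control replicate 2 held 191 of 2420016. The log2 fold change was -2.69 ± 0.51 (SE, edgeR adjusted p = 9.91e-06). P1 libraries were at 15.1, 104 and 222 CPM in control and at 51.2, 124, 285 and 573 CPM in Casp2-depleted libraries. The other 4 synthetases, Acsl3, Acsl4, Acsl5 and Acsl6, had reads in 5 to 14 of the 21 libraries and were not called in any comparison. Of the reads on the 5 synthetase genes, Acsl1 held 68.2 to 97.1% at P7 and 0 to 100% at P14. Acsl3 shares 13693 bases with the coding gene Utp14b on the same strand. The effect of this overlap on the count of Acsl3 and on these shares was not tested.

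In the control of malonyl-CoA, Acacb and Mlycd were lower at P14 and Acaca was not. Acacb, the acetyl-CoA carboxylase at the mitochondrial surface whose malonyl-CoA restrains the carnitine shuttle, was at 498, 545, 561 and 628 CPM in P7 control and at 231, 257, 381 and 508 CPM in P7 Casp2-depleted libraries. At P14 it was at 89.8, 96.0 and 242 CPM in control and at 87.2, 90.2 and 192 CPM in Casp2-depleted libraries, so the days were apart within each genotype. At P1 it was at 87.9, 165 and 392 CPM in control and at 44.9, 144, 364 and 726 CPM in Casp2-depleted libraries. Its log2 fold change from P7 to P14 was -1.73 ± 0.41 (SE, edgeR adjusted p = 0.000937). Acaca, the cytosolic carboxylase of fatty acid synthesis, had a mean of 111.5 CPM at P7 and 169.6 CPM at P14, with a log2 fold change of 0.53 ± 0.48 (SE, edgeR adjusted p = 0.528). In control libraries its P14 values of 181, 199 and 305 CPM were all above its P7 values of 32.9 to 151 CPM, which was so for 1.92% of all genes.

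The reads on the pair were therefore split differently. Acacb held 76.7 to 95.02% of the reads on Acaca and Acacb in P7 control libraries and 31.1 to 44.2% in P14 control libraries. In Casp2-depleted libraries the share was 50.3 to 85.3% at P7 and 44.0 to 77.3% at P14, with overlap. At P1 it ranged from 12.9 to 87.4% over both genotypes. The 95% Wilson intervals, which cover counting error only, were 26.8 to 35.8% for the lowest P14 control library (408 reads) and 93.7 to 96.1% for the highest P7 control library (1264 reads). In the 2 P14 libraries that the study left out, 1 of each genotype, all 354 and all 1062 reads of the pair were on Acacb, so the gap between the days in control CMs holds for the kept libraries only. These are shares of reads that were not corrected for gene length, and both genes came from 1 library each time, so the scaling between libraries cancels.

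**Figure D4:**
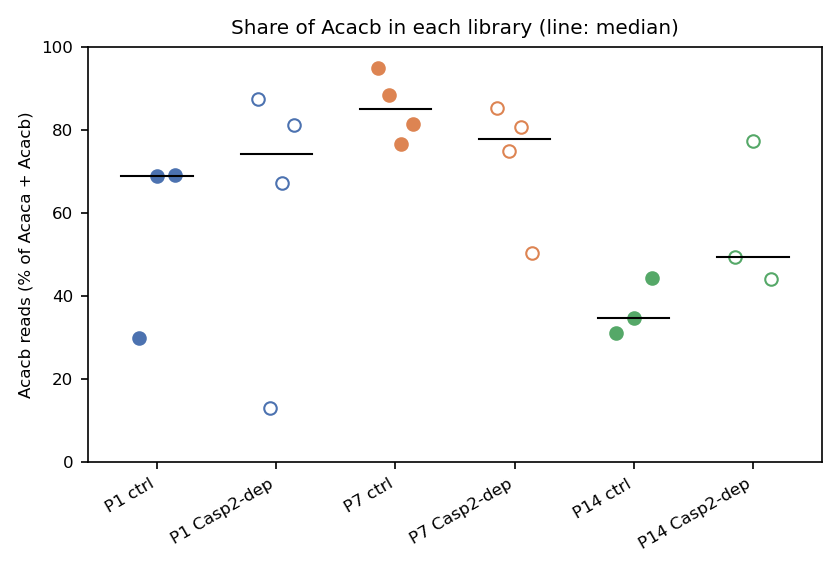
Percent of the reads on Acaca and Acacb that fell on Acacb (vertical axis) in each library, by day and genotype, with a line at the median of each group. The 3 P14 control libraries lie at 31.1 to 44.2% and the 4 P7 control libraries at 76.7 to 95.02%.

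Mlycd, the malonyl-CoA decarboxylase that removes malonyl-CoA, had 0 reads in all 6 P14 libraries. It was at 20.94, 21, 42.5 and 57.5 CPM in P7 control and at 0, 0.793, 17.2 and 42.0 CPM in P7 Casp2-depleted libraries. At P1 it was at 9.03, 26.8 and 54.8 CPM in control and at 0, 0, 23.6 and 124 CPM in Casp2-depleted libraries. The days overlapped with P14 only through Casp2-depleted libraries at 0. The limit that a count of 0 allows was taken as 3 reads over the 6 libraries. On that limit, the pooled level of Mlycd was at least 79.5-fold lower at P14 than at P7 (edgeR adjusted p = 0.00145). It was at least 106-fold lower than at P1 (edgeR adjusted p = 0.00177). Both bounds cover counting error only and leave out the spread between libraries. Cpt1a, the carnitine palmitoyltransferase form that is prominent in fetal heart and liver, had means of 75.4 CPM at P7 and 22.3 CPM at P14, and Cpt2, its partner at the inner membrane, 22.5 and 6.88 CPM. Neither was called.

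In the oxidation spiral, Acadm, Hadha and Acaa2 were called lower at P14. Of its 10 genes, 9 had fitted values below 0 and 1 above, where 33.5% of all genes were above 0. Acadm, the medium-chain acyl-CoA dehydrogenase (chromosome 3, 153627989 to 153650317, minus strand), was at 73.5, 97.5, 99.4 and 160.5 CPM in P7 control and at 31.6, 54.4, 55.5 and 97.2 CPM in P7 Casp2-depleted libraries. At P14 it was at 6.75, 34.2 and 60.8 CPM in control and at 0, 0 and 1.89 CPM in Casp2-depleted libraries, and the days were apart within each genotype. At P1 Acadm was at 0.602, 5.63 and 13.5 CPM in control and at 0.702, 71.1, 107.9 and 118 CPM in Casp2-depleted libraries. The log2 fold change from P7 to P14 was -4.01 ± 1.01 (SE, edgeR adjusted p = 0.00230). Only 3 reads stood behind the P14 Casp2-depleted value, and in these libraries the P7 level was 96.7-fold that of P14, with an exact 95% counting interval of 32.9 to 471.

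Hadha, the alpha subunit of the mitochondrial trifunctional protein (chromosome 5, 30323302 to 30360187, minus strand), was at 220.5, 259, 382 and 503 CPM in P7 control and at 167, 191, 266 and 345 CPM in P7 Casp2-depleted libraries. At P14 it was at 44.3, 80.5 and 145 CPM in control and at 22.1, 49.8 and 111 CPM in Casp2-depleted libraries, all below every P7 library. By reads on genes alone, the days overlapped for Hadha. P14 control replicate 1 held 205 of 1278961 such reads, and P7 Casp2-depleted replicate 2 held 241 of 1799110. P1 control libraries were at 1.20, 225 and 262 CPM and P1 Casp2-depleted libraries at 58.2, 200.4, 239 and 492 CPM. Its log2 fold change was -1.96 ± 0.46 (SE, edgeR adjusted p = 0.000904). Hadhb, the beta subunit, which lies head to head with Hadha and overlaps it by 984 bases on the opposite strand, had means of 53.5 CPM at P7 and 21.6 CPM at P14 and was not called (edgeR adjusted p = 0.348).

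Acaa2, a thiolase that ends each turn of the spiral, was at 20.9, 26.1, 42.0 and 61.5 CPM in P7 control and at 0, 11.9, 49.5 and 55.03 CPM in P7 Casp2-depleted libraries. At P14 it was at 0, 20.2 and 37.5 CPM in control and at 0 CPM in all 3 Casp2-depleted libraries (edgeR adjusted p = 0.0446). P1 values were 0, 6.34 and 41.3 CPM in control and 0, 1.35, 29.99 and 62.9 CPM in Casp2-depleted libraries, and the days overlapped. The long-chain dehydrogenases Acadvl and Acadl, the short-chain dehydrogenase Acads, and Echs1, Hadh and Acaa1a were not called.

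Among the auxiliary enzymes that handle double bonds, Eci1 and Decr1 were called lower at P14, and Eci2 and Ech1 were not. Eci1, a mitochondrial enoyl-CoA isomerase, was at 34.5, 36.6, 46.5 and 72.7 CPM in P7 control and at 5.50, 9.14, 26.2 and 50.9 CPM in P7 Casp2-depleted libraries, and at P14 at 0 CPM in all 3 control libraries and at 0, 0 and 17.0 CPM in Casp2-depleted libraries (edgeR adjusted p = 0.0222). At P1 it was at 0, 16.2 and 42.9 CPM in control and at 0, 13.6, 16.9 and 59.5 CPM in Casp2-depleted libraries. Decr1, the mitochondrial 2,4-dienoyl-CoA reductase, was at 9.93, 10.5, 28.1 and 30 CPM in P7 control and at 7.73, 13.5, 15.1 and 31.3 CPM in P7 Casp2-depleted libraries. Of its P14 libraries, 1 control library was at 4.95 CPM and the other 5 were at 0, all below every P7 library (edgeR adjusted p = 0.0473). At P1 Decr1 was at 4.93, 30.7 and 40.5 CPM in control and at 0, 0, 19.5 and 31.7 CPM in Casp2-depleted libraries. Because a whole P14 group was at 0 for Acaa2, Eci1 and Decr1, their fitted fold changes depend on the prior count and are not given. Eci2, an isomerase found in mitochondria and peroxisomes, was at 80.5, 98.2, 102 and 186 CPM in P7 control, 94.9, 102, 174 and 196 CPM in P7 Casp2-depleted, 5.25, 56.5 and 81.2 CPM in P14 control and 15.1, 57.1 and 84.5 CPM in P14 Casp2-depleted libraries. At P1 Eci2 stood at 40.3, 54.2 and 122 CPM in control and at 35.2, 36.5, 90.0 and 118 CPM in Casp2-depleted libraries, so that P14 and P7 were apart in Casp2-depleted libraries only. It was not called (log2 fold change -1.36 ± 0.64, edgeR adjusted p = 0.139).

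**Figure D5:**
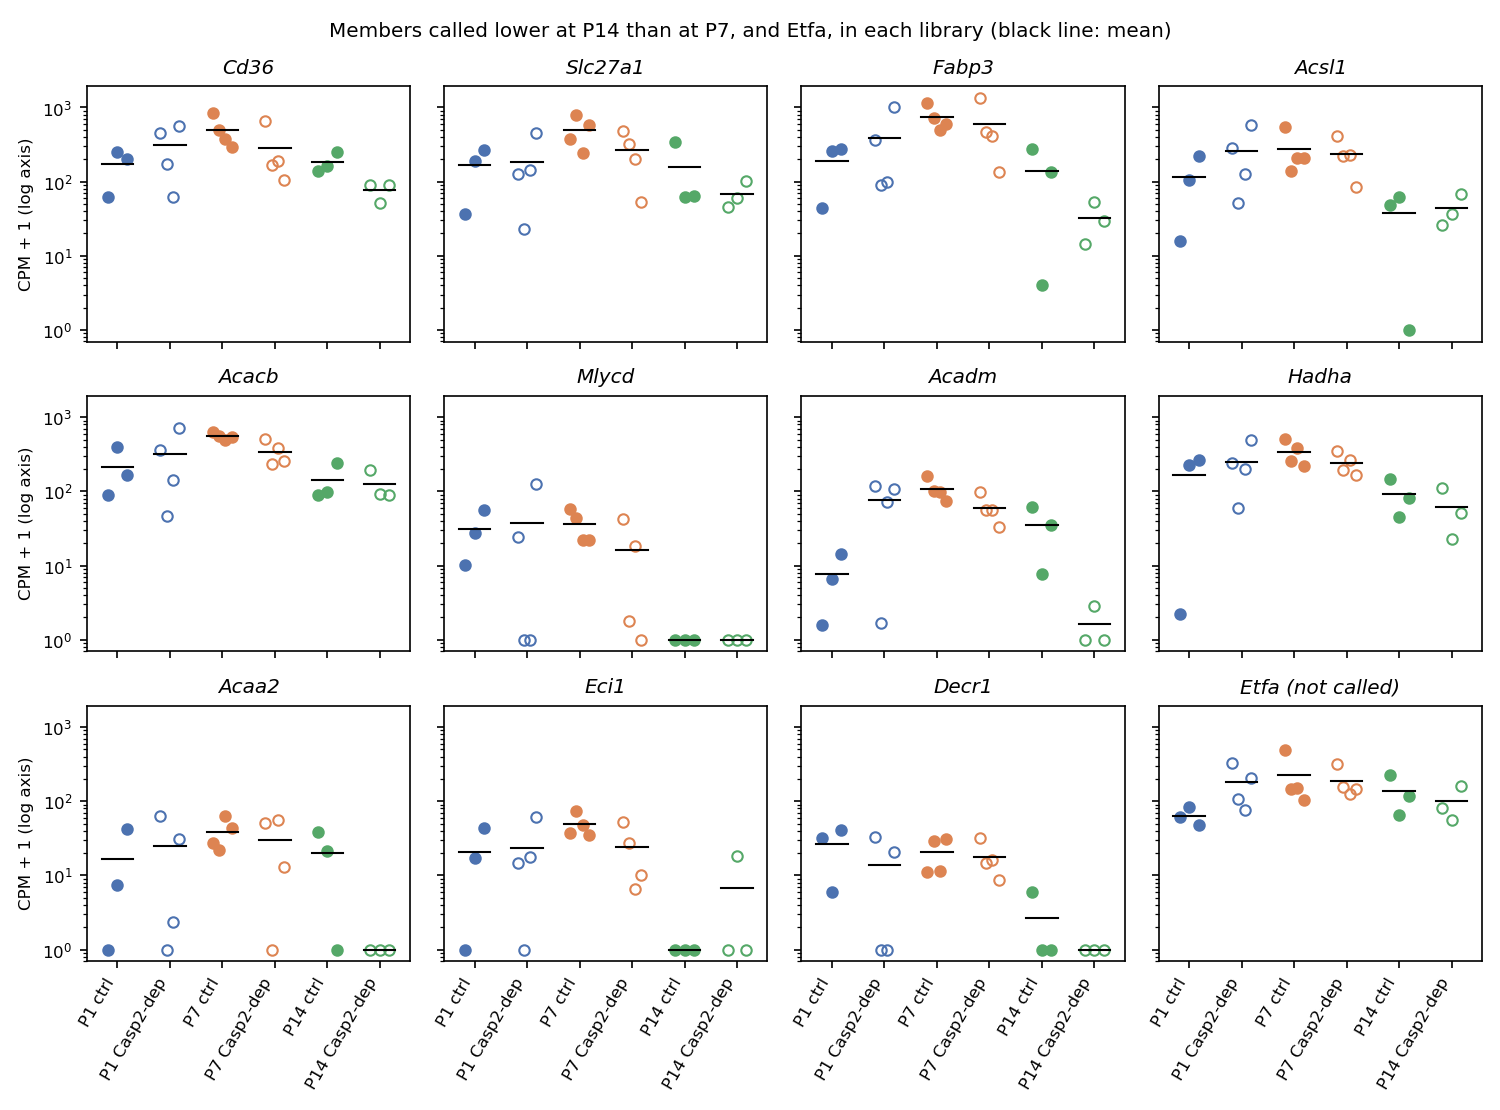
CPM + 1 (log axis) of the 11 members called lower at P14 than at P7, and of Etfa, in each of the 21 libraries, by day and genotype (filled: control, open: Casp2-depleted, black lines: group means). With CPM scaled by TMM factors, the P14 values of Acsl1, Hadha and Decr1 lie below all P7 values, and Etfa overlaps between the days.

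The electron transfer genes did not pass the test in this comparison. Etfa, the alpha subunit of the electron-transferring flavoprotein, was at 104, 143, 151 and 488 CPM in P7 control and at 126, 147, 152 and 319 CPM in P7 Casp2-depleted libraries, and at 63.8, 117 and 225 CPM in P14 control and 54.2, 80.4 and 161 CPM in P14 Casp2-depleted libraries. P1 libraries were at 46.1, 59.6 and 83.1 CPM in control and at 75.2, 106, 203 and 330.3 CPM in Casp2-depleted libraries. The log2 fold change from P7 to P14 was -0.81 ± 0.48 (SE, edgeR adjusted p = 0.263), close to the median of all genes, and P7 and P14 overlapped in both genotypes. Etfdh, which hands the electrons on to ubiquinone, had means of 64.1 CPM at P7 and 104.4 CPM at P14 (log2 fold change 0.75 ± 0.65, edgeR adjusted p = 0.492).

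The thioesterases and the genes of triglyceride turnover were low and variable. Acot2, a mitochondrial acyl-CoA thioesterase, was at 3.27, 3.75, 8.64 and 9.93 CPM in P7 control, 0.688, 0.793, 15.5 and 25.7 CPM in P7 Casp2-depleted, 0, 2.12 and 2.25 CPM in P14 control and 0, 2.52 and 10.5 CPM in P14 Casp2-depleted libraries. Its P1 values were 0.794, 35.9 and 52.4 CPM in control and 1.35, 9.49, 10.1 and 28.8 CPM in Casp2-depleted libraries. Dgat2, which makes triglyceride, was at 1.57, 30.2, 39.3 and 119 CPM in P7 control, 18.2, 26.1, 35.0 and 41.5 CPM in P7 Casp2-depleted, 0, 12.8 and 72.1 CPM in P14 control and 7.76, 20.2 and 36.04 CPM in P14 Casp2-depleted libraries. Its P1 values were 0, 2.82 and 79.5 CPM in control and 3.00, 22.6, 50.8 and 55.4 CPM in Casp2-depleted libraries. Acot2 was lower in all P14 control libraries than in all P7 control libraries, and otherwise the days overlapped for both genes. Neither these nor Acot13, Lpin1, Pnpla2 and Plin5 were called in any comparison.

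Within a single genotype the test from P7 to P14 called fewer members. In control CMs, Acsl1 (log2 fold change -2.91 ± 0.72, edgeR adjusted p = 0.00667) and Acacb (-1.97 ± 0.58, edgeR adjusted p = 0.0425) were called lower and 0 of 36 higher, where 1.87% of all genes were called lower and 0.00982% higher. The next smallest p belonged to Eci1, with a mean of 47.6 CPM at P7 and 0 CPM at P14 (edgeR adjusted p = 0.0719). With the replicate number as a block, 4 members were called in control CMs: Slc27a1, Fabp3, Acsl1 and Acacb. Acsl1 lost its call without P7 control replicate 1 or P14 control replicate 4, and Acacb kept it in 5 of the 21 fits that left out 1 library, so the count was 0 to 2. Under the 11 other alternatives Acsl1 was called in 6 and Acacb in 1. Both calls were lost in limma-voom with either normalization. The libraries of the days did not overlap for 13 members that were lower at P14 (36.1%, against 13.5% of all genes) and for 1, Acaca, that was higher.

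In Casp2-depleted CMs, Acadm (edgeR adjusted p = 0.00607) and Acsl1 (log2 fold change -2.47 ± 0.71, edgeR adjusted p = 0.0227) were called lower at P14 than at P7, against 2.82% of all genes, and Slc27a1 had the next smallest p (-1.96 ± 0.62, edgeR adjusted p = 0.0554). Of the 21 fits that left out 1 library, Acadm lost its call only without P14 Casp2-depleted replicate 4 and Acsl1 lost it in 7, with counts from 0 to 6. Under the 11 other alternatives Acadm was called in 9 and Acsl1 in 3. The block added Fabp3. For 8 members (22.2%, against 10.9% of all genes) all P14 libraries lay below all P7 libraries: Cd36, Fabp3, Acsl1, Acacb, Acadm, Hadha, Eci2 and Decr1. For 0 members they lay above (2.26% of all genes). The difference between the genotypes in this change was tested itself, and 0 members were called. At an unadjusted p below 0.05 there were 5 of the 36 members, where 9.76% of all genes were. The 3 smallest p-values were those of Acads, Acadm and Acaa2 (edgeR adjusted p = 0.415, 0.417 and 0.424), and 0.0245% of all genes were called.

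The change from P1 to P7 asks whether the pathway rose in the first postnatal week. In edgeR's test 0 members were called in control CMs, in Casp2-depleted CMs or in the mean of both, where 0.00982%, 0.0196% and 0.0933% of all genes were called, all of them higher at P7. At an unadjusted p below 0.05 there were 6, 0 and 5 of the 36 members, where 6.67%, 7.4% and 9.53% of all genes were. limma-voom called 0 with either normalization in each of the 3, and DESeq2 called 1, Acadm, in control CMs and 0 in the others. In control CMs 31 of the 36 fitted values were above 0, where 55% of all genes were. The median log2 fold change was 1.04 over the members and 0.21 over all genes. The libraries of P7 lay above all those of P1 for 7 members, Cd36, Fabp3, Acacb, Acadm, Ech1, Etfa and Plin5 (19.4%, against 6.89% of all genes), and for 0 members below (against 2.86% of all genes). The smallest p-values belonged to Acadm, with a mean of 6.58 CPM at P1 and 107.7 CPM at P7 (log2 fold change 4.03 ± 1.40, edgeR adjusted p = 0.626), Cd36 (1.55 ± 0.59, the same adjusted p) and Slc27a1 (1.60 ± 0.61, the same adjusted p). P1 control replicate 2 was the lowest library of that group for each of these 3 genes and had 73.9% of its reads on no gene, against 60.7 and 61.2% in the other 2 libraries.

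In Casp2-depleted CMs the median log2 fold change from P1 to P7 was -0.00139 over the members and 0.07 over all genes. There were 18 fitted values above 0 and 18 below, where 52.5% of all genes were above. The smallest p-values were those of Lpin1, Eci2 and Acsl6, each at an edgeR adjusted p of 1.00, and only Lpin1, a phosphatidate phosphatase, had P7 libraries all above P1 (2.78% of members, against 1.48% of all genes). The test of the difference between genotypes in this change called 0 members and 0 genes of all 20368 (0%). At an unadjusted p below 0.05 there were 2 of the 36 members, where 6.83% of all genes were. These were Acadm (-4.35 ± 1.72, edgeR adjusted p = 0.587) and Cd36 (-1.69 ± 0.78, edgeR adjusted p = 0.675), and Etfa followed (edgeR adjusted p = 0.754). Over both genotypes 0 members had P7 libraries all above or all below P1, against 0.108% and 0.0196% of all genes. In the mean Slc27a1, Acsl6 and Acadm had the smallest p-values (edgeR adjusted p = 0.344, 0.351 and 0.442).

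From P1 to P14, Acsl1 (log2 fold change -2.12 ± 0.50, edgeR adjusted p = 0.00213), Mlycd (given above) and Hadha (-1.44 ± 0.46, edgeR adjusted p = 0.0464) were called lower in the mean of both genotypes and 0 higher, against 4% of all genes lower and 0.241% higher. Mlycd kept its call in all 21 fits without 1 library, Acsl1 in all except that without P1 control replicate 4, and Hadha in 6, with counts of 1 to 4. Under the 11 other alternatives Mlycd was called in 10, Acsl1 in 6 and Hadha in 0. Over both genotypes 0 members had P14 libraries all below or all above P1, against 0.447% and 0.0295% of all genes. With the block, Fabp3 was called and Hadha was not. In Casp2-depleted CMs Cd36 (-2.02 ± 0.60, edgeR adjusted p = 0.0431), Acsl1 (-2.60 ± 0.71, edgeR adjusted p = 0.0197) and Acadm (edgeR adjusted p = 0.00544) were called lower, against 1.92% of all genes. Of the 21 fits without 1 library, the call of Acadm was lost only without P14 Casp2-depleted replicate 4, that of Acsl1 in 5 and that of Cd36 in 16, with counts of 0 to 5. Under the 11 other alternatives Acadm was called in 9, Acsl1 in 3 and Cd36 in 0. With the block, 2 members were called there, Fabp3 and Acadm. P14 libraries lay below all P1 libraries for Fabp3 and for Pnpla2, the adipose triglyceride lipase (5.56% of members, against 4.78% of all genes). They lay above them for 0 members (2.01% of all genes). Pnpla2 was near the floor, at 0.677 CPM in its lowest P1 Casp2-depleted library and at 0 CPM at P14. In control CMs 0 members were called lower in edgeR's test, against 0.314% of all genes, and 0 higher, against 0.00491%. There were 6 of the 36 members at an unadjusted p below 0.05 (11.5% of all genes were), led by Mlycd, Eci1 and Acads (edgeR adjusted p = 0.274, 0.323 and 0.400). Libraries of P14 lay below those of P1 for Mlycd and Cpt2 (5.56% of members, against 6.41% of all genes). They lay above for Acsl5, a synthetase (2.78% of members, against 1.52% of all genes). There limma-voom called 1 member with either normalization and DESeq2 called 2. The comparisons of P14 with P1 and with P7 share the P14 libraries.

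Casp2-depleted and control CMs were then compared on each day. In edgeR's test 0 members were called at P1, P7 or P14, where 0%, 0% and 0.167% of all genes were called in either direction, and limma-voom called 0 members on each day with either normalization. At an unadjusted p below 0.05 there were 2, 0 and 8 of the 36 members, where 7.34%, 4.22% and 12.8% of all genes were. DESeq2 called 0 at P1 and P7 and 3 at P14, Acadm, Acads and Acaa2. At P7, 27 of the 36 fitted values were below 0 and 9 above, where 48.1% of all genes were above. The median log2 difference was -0.40 over the members and -0.03 over all genes. The smallest p-values at P7 were those of Slc27a1 (-0.92 ± 0.54), Cd36 (-0.84 ± 0.52) and Acacb (-0.70 ± 0.51), each at an edgeR adjusted p of 1.00. For 0 members were the P7 libraries of the genotypes apart, against 0.697% of all genes higher and 0.943% lower. Each of these 3 differences was below 2 standard errors, which does not show that the genotypes were alike.

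At P14 the median log2 difference between genotypes was -0.47 over the members and 0 over all genes. Acadm (means of 33.9 CPM in control and 0.630 CPM in Casp2-depleted libraries, edgeR adjusted p = 0.138), Acaa2 (19.2 and 0 CPM, edgeR adjusted p = 0.328) and Acads (0 and 18.9 CPM, edgeR adjusted p = 0.349) had the smallest p-values. The control level of Acadm was 52.0-fold that of the Casp2-depleted libraries, with an exact 95% counting interval of 17.4 to 255 from 3 reads. Cd36 and Acadm were lower in all 3 Casp2-depleted libraries than in all 3 control libraries (5.56% of members, against 2.14% of all genes), and Acads was higher (2.78%, against 3.01%). Without P14 control replicate 2, Fabp3 and Acadm were called, and without any other library 0 members were. At P1, Acadm (6.58 CPM in control and 74.5 CPM in Casp2-depleted libraries), Etfa (62.9 and 179 CPM) and Acsl1 (114 and 258 CPM) had the smallest p-values, at edgeR adjusted p = 0.644, 0.644 and 0.650. The libraries of the genotypes overlapped for all 36 members at P1, where 1.13% of all genes were apart and higher and 2.27% apart and lower.

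Genes around the pathway, 85 in 5 lists of regulators, other mitochondrial fatty acid genes, peroxisomal oxidation, PPAR targets of muscle, and triglyceride and ketone genes, were read in the same fit. Of the 81 tested, 15 were called lower at P14 than at P7 in the mean of both genotypes and 0 higher, with a median log2 fold change of -2.05, beside 8.66% called lower and a median of -0.87 over all genes. The other mitochondrial and the peroxisomal list, with 1 called gene each, were below that share. Among 16 regulators tested, 6 were called lower. The coactivators Ppargc1a and Ppargc1b had means of 252 and 683 CPM at P7 and of 51.5 and 168 CPM at P14 (edgeR adjusted p = 0.000108 and 4.17e-06). Esrrg, an estrogen-related receptor, went from 922 to 348 CPM (edgeR adjusted p = 0.00122), and Ncor1, a corepressor of nuclear receptors, from 2414 to 642 CPM (edgeR adjusted p = 1.45e-08). Prkaa2 and Prkag2, subunits of AMP-activated kinase, went from 171 to 43.2 CPM and from 239 to 85.6 CPM (edgeR adjusted p = 0.00126 and 0.0268). Ppara, the receptor for fatty acids in the heart, had a mean of 926 CPM at P7 and 937 CPM at P14, and it was not called.

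The list of 24 other mitochondrial genes also holds genes that act elsewhere in the cell, such as Fabp4, Fabp5, Slc27a4 and Slc27a6. Of the 24, only Slc25a20, the carnitine-acylcarnitine carrier, was called from P7 to P14, with means of 219.8 and 50.03 CPM (edgeR adjusted p = 0.00182). Pcca, a propionyl-CoA carboxylase subunit, had means of 108.4 and 120.4 CPM and was not called. Of 14 peroxisomal genes tested, Decr2 was called, with 0 reads in all P14 libraries and at least a 32.7-fold lower level than at P7 (edgeR adjusted p = 0.0334), and Pex14, of peroxisomal import, and Abcd3, a peroxisomal transporter, were not (means of 218 and 157 CPM at P7 and 169 and 59.6 CPM at P14). Of 10 PPAR targets tested, 4 were called, among them Pdk2, a brake on glucose oxidation, and Angptl4, an inhibitor of lipoprotein lipase, with means of 35.0 and 30.8 CPM at P7 and 4.43 and 0.625 CPM at P14, and Plin4, a lipid droplet coat protein, with 0 reads at P14 and a level at least 90.3-fold lower. The edgeR adjusted p-values of these 3 genes were 0.0223, 0.00482 and 0.00101. Cidea, a lipid droplet protein, and Pdk4, a further brake on glucose oxidation, had means of 50.4 and 23.5 CPM at P7 and 92.4 and 34.5 CPM at P14 and were not called. Of 17 triglyceride and ketone genes, Acat1 (156 and 5.77 CPM), Agpat3 (91.0 and 2.66 CPM) and Dgat1 (0 reads at P14, at least 87.3-fold lower) were called, at edgeR adjusted p = 2.26e-09, 1.47e-06 and 0.00259. The bounds given for Decr2, Plin4 and Dgat1 cover counting error only and leave out the spread between libraries. Oxct1, of ketone use, and Mgll, a monoglyceride lipase, had means of 300.1 and 218 CPM at P7 and 398 and 157 CPM at P14 and were not called.

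The only pathway gene called higher in any comparison was Abcd2, a peroxisomal fatty acid transporter. Its means were 0.662 CPM at P1 and 27.2 CPM at P14 in the mean of both genotypes (edgeR adjusted p = 0.0472). There 0.241% of all genes were called higher. Its libraries ranged from 0 to 3.97 CPM at P1 and from 0 to 92.4 CPM at P14, so the days overlapped. From P1 to P7 and between genotypes, 0 of the 81 were called in edgeR's test. From P1 to P7 in the mean of both genotypes 6 of them had an unadjusted p below 0.05 (9.53% of all genes did), and between genotypes at P14 11 had (12.8% of all genes).

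The members called lower from P7 to P14 spanned 6.87 to 107.6 kb, with a median of 33.2 kb, and the other members tested 5.42 to 272 kb, with a median of 30.8 kb. Over the 36 members, Spearman's rho between gene span and the number of P14 libraries with reads was 0.39, and between span and the fold change 0.34, as a description across genes of the same libraries. The 11 called members held a median of 6191 reads, and the other 25 a median of 699.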

How the data were processed

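RNA from PCM1-sorted ventricular nuclei was sequenced as QuantSeq 3′ libraries. The authors trimmed reads with cutadapt 4.0, aligned them to GRCm39 with STAR 2.6.1e and deposited read counts per gene, over exons and introns, from HTSeq 2.0.3. Reads on no gene (34.3 to 76.1% of uniquely placed reads) and ambiguous reads stayed out of library sizes. With 1 read equal to 0.342 to 1.12 CPM, low genes were measured coarsely. Gene symbols came from GENCODE, and 99.5% of reads were on named genes.

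Genes were kept at 10 or more reads in all and reads in 3 or more libraries, and tested with edgeR 4.0.16 (TMM, robust quasi-likelihood F-test, R 4.3.3) on 6 group means over 21 libraries (15 residual degrees of freedom, common biological coefficient of variation 1.5). Fold changes used edgeR's default prior count, and log2 CPM used a prior count of 2. The 14 comparisons were adjusted by Benjamini-Hochberg over all genes tested. The edgeR test was also run on simulated counts with changes larger than most of those reported here, so that run is no check on smaller changes. Alternatives were filterByExpr, no filter, RLE, all 24 libraries, thinning to 891817 reads, a replicate block, limma-voom (limma 3.58.1), DESeq2 1.42.0, the percentage of reads off genes as a covariate, and each library left out in turn. A fit without robust estimation was chosen after seeing the data.

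The replicate number is called a batch in the names of the deposited files. The main fit did not pair libraries by it. The replicate block used it as a term with the same levels on all days. Deviations of same-numbered libraries correlated at r = 0.0949, -0.059 and 0.0981 at P1, 0.185, 0.0323, 0.0454 and 0.0791 at P7, and 0.0175 and 0.0206 at P14, over 20368 genes. Replicate pairs differed beyond sampling noise (chi-square per degree of freedom 17.8 to 75.3).

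The members and the lists were chosen with earlier results of these data known. Values in every library are given for members called in any comparison and for the member with the highest mean in each role group. The 3 smallest p-values are named for each comparison. Pathway genes are named where called, and otherwise the 2 highest of each list. A called gene of the PPAR target list is not reported here. The sequences belong to the 4 members called in the most comparisons, ties by the smallest p. Promoter sequences came from RefSeq on GRCm38.p6, a different build from that of the counts, and 32 of the 38 members matched.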

Additional observations from a re-analysis of the deposited data

Results flagged for a closer look

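In P7 Casp2-depleted CMs, Cd36 was at 658 CPM in replicate 1, far above the other 3 libraries (105 to 188 CPM). Etfa was at 488 CPM in P7 control replicate 1, with the other 3 libraries at 104 to 151 CPM, and at 319 CPM in P7 Casp2-depleted replicate 1, with the other 3 at 126 to 152 CPM. Each of these values lay farther from its group than Dixon's test allows at 95%, among 48 groups of 4 libraries looked at, and chance alone gives about 1 such group in 20. The cause was not tested.

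P1 control replicate 1, which the paper left out over signs of cytoplasmic contamination, entered only the fit of all 24 libraries. It had a summed member level of 4417 CPM, above the 1215 to 2448 CPM of the 3 kept P1 control libraries. Mitochondrially encoded genes held 1.88% of its reads on genes, against 0.139 to 0.402% in the kept ones. The part of contamination in the member level was not tested. Reads were found there for 34 of the 38 members, and 26 members were higher than in all kept P1 control libraries. Its share of reads on no gene was 9.21%, against 60.7 to 73.9% in the kept ones.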

How the results depend on the processing

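The count of members called lower from P7 to P14 in the mean of both genotypes was 8 to 12 under 9 of the 11 alternatives that kept all libraries or added the left-out ones, 5 in limma-voom with quantile normalization and 0 with the percentage of reads off genes as a covariate. With that covariate the fitted log2 fold changes of Cd36 and Slc27a1 turned to 0.37 and 0.13, and the counts from P7 to P14 in control CMs (0) and Casp2-depleted CMs (0), and from P1 to P14 in Casp2-depleted CMs (0) and in the mean (0), were lost too. The cause was not tested.

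For P7 to P14 in control CMs, where 2 members were called, the count was 0 with filterByExpr, 1 without a filter, 1 with RLE, 0 with all 24 libraries, 1 after thinning, 4 with the replicate block and 4 in DESeq2. The calls of Acsl1 and Acacb there were lost in limma-voom with either normalization. For the same days in Casp2-depleted CMs, also with 2, it was 1 with filterByExpr, 1 with RLE, 0 with all 24 libraries and 5 in DESeq2. With the replicate block it was 3 there, and Acsl1 was not called in limma-voom with either normalization. From P1 to P14 in Casp2-depleted CMs, with 3 called, it was 1 with filterByExpr, 1 with RLE, 0 with all 24 libraries, 1 in limma-voom with either normalization, 2 with the replicate block and 5 in DESeq2. From P1 to P14 in the mean, with 3 called, it was 1 with filterByExpr, 5 with all 24 libraries and 1 in limma-voom with quantile normalization. In control CMs from P1 to P14, with 0 called, it was 1 in limma-voom with TMM, 1 with quantile normalization and 2 in DESeq2. DESeq2 also called 1 member from P1 to P7 in control CMs and 3 between genotypes at P14. The replicate block changed no other call beyond those given here and beside the results.

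Leaving out 1 library at a time gave 0 to 2 members for P7 to P14 in control CMs, 0 to 6 in Casp2-depleted CMs and 7 to 11 in the mean. It gave 0 to 5 for P1 to P14 in Casp2-depleted CMs, 1 to 4 in the mean and 0 to 2 between genotypes at P14. The 25 members not called from P7 to P14 held a median of 699 reads and the 11 called a median of 6191, and the part of depth in the calls was not tested.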

Other observations

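Uptake genes and Acsl1 together held 24.5 to 55.9% of all member reads at P7 and 19.9 to 41.6% at P14, and 17.99 to 47.5% at P1. The reads on the trifunctional protein pair Hadha and Hadhb fell on Hadha for 74.1 to 94.5% at P7 and for 57.3 to 100% at P14. Both shares overlapped between the days and were not tested, and these are shares of reads that were not corrected for gene length.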
